A study of Mus musculus with 15 samples.

Results

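A set of 1584 stretches of the mouse genome carried H3K4me3 outside protein-coding genes and more than 1000 bp from their ends, and had no called YY1 peak in HPC-7 cells. They were picked from called CUT&Tag peaks, a method in which transposase tethered to an antibody inserts sequencing adapters beside the target. H3K4me3 peaks of 3 libraries that shared at least 1 bp were merged on chromosomes 1 to 19, X and Y, and 16653 regions with a peak in 2 or 3 libraries were kept. A member had to overlap no peak of any of 3 control YY1 libraries, overlap no protein-coding gene span of RefSeq (GRCm38, the assembly of mm10), and lie more than 1000 bp from both ends of every such gene. The 1584 members were 9.51% of all 16653 regions and 22.5% of the 7034 that had no YY1. Intergenic here refers to protein-coding genes only, so lncRNA, miRNA, tRNA and other genes may lie under a member.

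HPC-7 is an early haematopoietic cell line that was derived from mouse ES cells. The control cells had the genotype WT in the labels and carried shLUC in their descriptions, which names an shRNA against luciferase. The shYY1 cells carried an shRNA against YY1 and were the same line. Control cells were profiled for H3K4me3, for the transcription factor YY1 and for SMC3, a subunit of the cohesin ring, and shYY1 cells for SMC3, with 3 libraries in each group and about 150000 cells per reaction. The protocol in the labels calls the 3 libraries of a group biological replicates. The 3 IgG libraries were not analysed here, and shYY1 cells had no H3K4me3 or YY1 library. Neither the depth of the knockdown nor the IgG background was therefore assessed here. H3K4me3 lists held 16763 to 17895 peaks, YY1 lists 3750 to 10699, control SMC3 lists 2061 to 4595 and shYY1 SMC3 lists 2631 to 3213. The lists give positions without scores or read counts, so sequencing depth is unknown, and a region without a called peak is not shown to lack the protein. The third YY1 list and the third control SMC3 list were the shortest of their groups. As a check of the labelled cell type, 12 of 15 early haematopoietic marker genes had an H3K4me3 region within 1000 bp of an end (Lmo2, Gata2 and Erg did not), against 1 of 20 markers of other cells (Cd4).

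H3K4me3 is the trimethyl mark on lysine 4 of histone H3 that SET1 and MLL complexes place at sites of transcription initiation. It is best known from promoters of protein-coding genes, where it lies on the first nucleosomes after the start, but it also marks the starts of lncRNA and miRNA host genes, genes transcribed by RNA polymerase III such as tRNA genes, and strongly active enhancers. YY1 is a zinc finger factor that binds many promoters and enhancers and takes part in contacts between them, and cohesin extrudes and holds DNA loops.

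The sequences of 6 noncoding promoters that lay in members are printed first, because they show members that lie on an annotated start. Each is the RefSeq window (GRCm38.p6) from 250 bp before to 50 bp after the start, read 5′ to 3′ on the gene's strand. The windows belong to Morrbid at chr2:128429302-128429601 on the minus strand, 6530402F18Rik at chr2:29252944-29253243 on the minus strand, Snhg20 at chr11:117076533-117076832 on the plus strand, Lncpint at chr6:31218425-31218724 on the minus strand, Firre at chrX:50635272-50635571 on the minus strand and Ftx at chrX:103623705-103624004 on the minus strand. Morrbid and 6530402F18Rik lay in members among the 12 longest, and the other windows were chosen after the values had been seen. Capitals mark matches to any of 8 short motifs searched on both strands: CCATNTT for the YY1 core, CCGGAAG for ETS factors, GCATGCG for NRF1, GGGCGG for the GC box, CCAAT for the site of NF-Y, TATAAA for the TATA box, AGATAAG for GATA factors and TGTGGTT for RUNX factors. None of these motifs contains another. A match is a string of letters only, and a window in lower case throughout holds none of the 8.
Morrbid: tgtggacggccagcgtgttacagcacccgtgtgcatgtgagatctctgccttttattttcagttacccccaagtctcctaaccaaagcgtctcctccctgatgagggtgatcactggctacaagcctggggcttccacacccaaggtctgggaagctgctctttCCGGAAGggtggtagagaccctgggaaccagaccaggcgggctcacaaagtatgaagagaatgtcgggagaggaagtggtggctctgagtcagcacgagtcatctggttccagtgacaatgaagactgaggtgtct
6530402F18Rik: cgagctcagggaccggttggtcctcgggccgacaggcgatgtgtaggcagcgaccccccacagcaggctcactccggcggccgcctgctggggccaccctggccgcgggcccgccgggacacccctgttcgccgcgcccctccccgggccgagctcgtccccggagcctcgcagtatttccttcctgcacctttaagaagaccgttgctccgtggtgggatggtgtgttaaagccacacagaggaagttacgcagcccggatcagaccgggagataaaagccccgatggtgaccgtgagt
Snhg20: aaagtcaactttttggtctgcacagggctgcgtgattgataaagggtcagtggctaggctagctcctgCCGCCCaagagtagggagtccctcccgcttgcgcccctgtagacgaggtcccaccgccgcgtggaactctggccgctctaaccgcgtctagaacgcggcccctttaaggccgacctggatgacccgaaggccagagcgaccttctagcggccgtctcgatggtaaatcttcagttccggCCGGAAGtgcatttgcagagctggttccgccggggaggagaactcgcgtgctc
Lncpint: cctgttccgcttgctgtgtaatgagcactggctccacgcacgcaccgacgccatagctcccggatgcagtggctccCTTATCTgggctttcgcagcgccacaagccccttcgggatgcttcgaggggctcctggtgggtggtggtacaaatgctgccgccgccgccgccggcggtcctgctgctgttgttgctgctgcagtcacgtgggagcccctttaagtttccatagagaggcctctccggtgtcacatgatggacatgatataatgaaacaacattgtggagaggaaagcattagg
Firre: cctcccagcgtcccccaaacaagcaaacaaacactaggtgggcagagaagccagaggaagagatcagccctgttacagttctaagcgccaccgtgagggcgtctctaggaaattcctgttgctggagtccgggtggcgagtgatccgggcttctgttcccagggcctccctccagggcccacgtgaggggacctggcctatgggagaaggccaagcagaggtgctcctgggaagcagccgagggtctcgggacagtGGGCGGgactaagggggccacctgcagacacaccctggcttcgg
Ftx: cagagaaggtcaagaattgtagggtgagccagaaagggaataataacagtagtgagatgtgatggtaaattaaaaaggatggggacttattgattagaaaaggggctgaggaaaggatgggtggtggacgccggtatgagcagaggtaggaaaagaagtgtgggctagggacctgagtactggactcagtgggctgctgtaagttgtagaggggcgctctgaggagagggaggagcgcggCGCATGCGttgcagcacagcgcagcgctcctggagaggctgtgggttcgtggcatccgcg

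The miRNAs whose genes lay under or beside members are shown next as mature RNAs from RefSeq, with the seed (bases 2 to 8, which pairs with target mRNAs) in capitals. Those of Mir203, Gm51289, Mir6516, Mir760, Mirlet7i, Mir193a and Mir146b were among the 12 miRNA genes nearest to a member, and those of Mir142, Mir142b, Mir22, Mir181c, Mir181d and Mir7k were chosen after the values had been seen.
mmu-let-7i-5p: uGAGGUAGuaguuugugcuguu
mmu-let-7k: uGAGGUAGgagguugugug
mmu-miR-181c-5p: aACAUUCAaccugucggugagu
mmu-miR-181d-5p: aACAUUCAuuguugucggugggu
mmu-miR-203-3p: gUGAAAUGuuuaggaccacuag
mmu-miR-203b-3p: uUGAACUGucaagaaccacugg
mmu-miR-6516-5p: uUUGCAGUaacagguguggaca
mmu-miR-760-3p: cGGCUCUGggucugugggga
mmu-miR-193a-3p: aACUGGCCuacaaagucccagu
mmu-miR-146b-5p: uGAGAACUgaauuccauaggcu
mmu-miR-22-3p: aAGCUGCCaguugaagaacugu
mmu-miR-142a-3p: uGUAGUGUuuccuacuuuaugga
mmu-miR-142a-5p: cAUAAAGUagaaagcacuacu
mmu-miR-142b: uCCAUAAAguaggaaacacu
In this group let-7i-5p and let-7k share the seed GAGGUAG, which 11 mature mouse miRNAs of the RefSeq table carry. miR-181c-5p and miR-181d-5p share ACAUUCA, carried by 4. Mir203 and Gm51289, and likewise Mir142 and Mir142b, are annotated on opposite strands of the same stretch of DNA, and their mature RNAs have different seeds.

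Members were short and mostly reproducible H3K4me3 regions. A peak was called in 3 of 3 libraries in 1200 members (75.8%) and in 2 of 3 in 384. The median summed peak length per member was 455.5 bp in library 1, 385 bp in library 2 and 411.5 bp in library 3, a mean of 417 ± 35.6 bp (SD of the library medians, n = 3). The corresponding means were 467 ± 40.6 bp for H3K4me3 regions without YY1 inside protein-coding gene spans, 731 ± 44.8 bp for those without YY1 at gene ends, and 608 ± 36.8 bp for intergenic regions with YY1. Members were therefore the shortest of these classes in each library. These lengths come from the files that chose the members, so they are a description with no test. The merged regions ranged from 200 to 2442 bp around a median of 502 bp and covered 903 kb in all. Only 126 members (7.95%) were over 1000 bp long, against 23.4% of intergenic regions with YY1. Among members called in 3 of 3 libraries the summits of the libraries spread over a median of 94 bp.

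**Figure D1:**
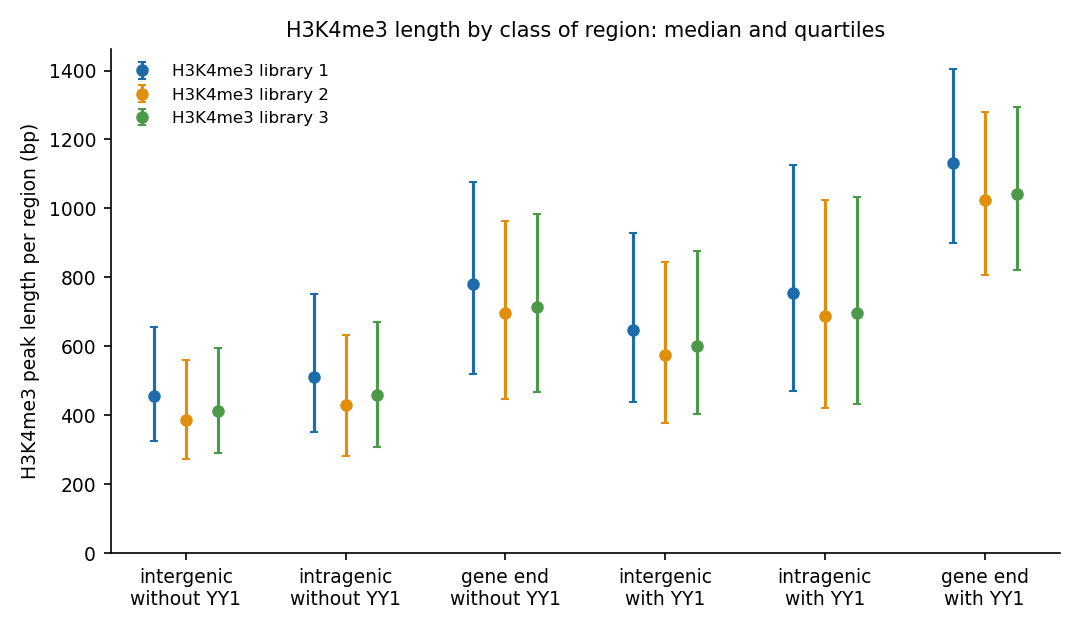
Summed H3K4me3 peak length per region in bp for 6 classes of H3K4me3 region, with the median (point) and quartiles (bars) of each of the 3 libraries. Intergenic regions without YY1, at the left, have medians of 385 to 455.5 bp, the lowest of the classes in each library.

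Lack of a YY1 call was about as common between genes as inside them. Of 2803 intergenic H3K4me3 regions 56.5% had no YY1 peak, against 55.6% of intragenic regions and 32.5% of regions at gene ends. The number of members depended on the YY1 lists: leaving out YY1 library 2, the longest, gave 1940 members, and leaving out the short library 3 gave 1588. When only YY1 regions called in 2 or more libraries excluded a region, there were 2010 members. Of the 1219 intergenic regions with YY1, 423 had YY1 peaks of 1 library only. A YY1 peak lay within 1 kb of 97 members (6.12%) without touching them, and the median gap from a member to the nearest YY1 peak was 24890 bp. Another H3K4me3 region lay within 1 kb of 210 members (13.3%) and within 5 kb of 414 (26.1%).

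Distances from protein-coding genes spanned 3 orders of magnitude. The nearest gene end was 15175 bp away at the median, with quartiles of 6390 and 40773 bp. Between 1 and 2.5 kb lay 139 members (8.78%), between 2.5 and 10 kb 457 (28.9%), between 10 and 50 kb 655 (41.4%), between 50 and 100 kb 189 (11.9%), and farther out 144 (9.09%). Intergenic regions with YY1 had a median of 14842 bp and a similar spread, so distance did not separate the classes by eye. Where the strand of the nearest gene was given, 668 of 1255 members (53.2%) lay before its start and 587 past its end. H3K4me3 length varied little over these bins: the median of the mean length per member, counting a library without a peak as 0, was 384 bp in the bin nearest to genes, 362 bp at 2.5 to 10 kb and 403 bp at 50 to 100 kb.

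**Figure D2:**
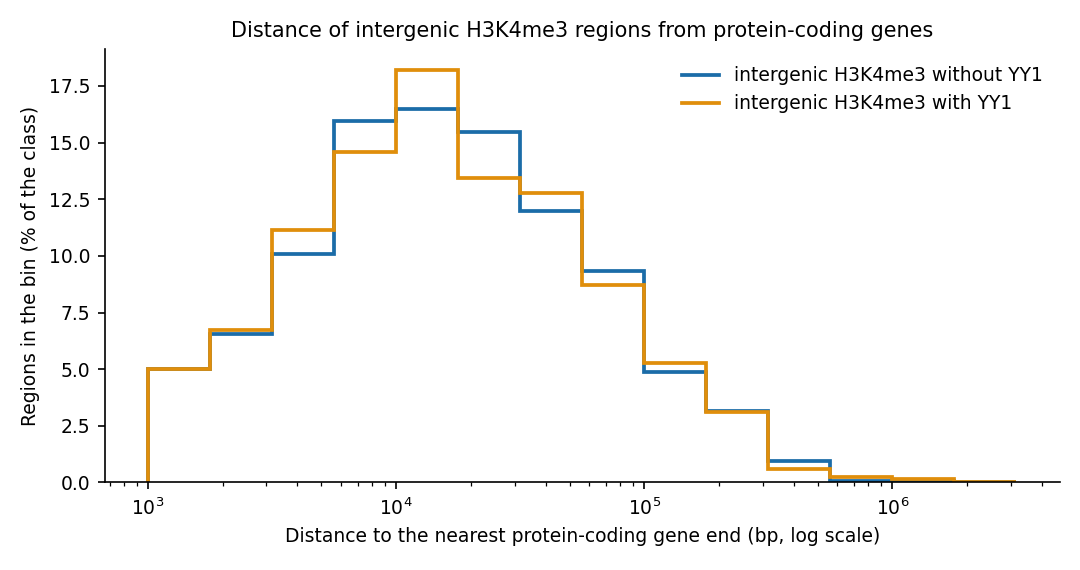
Share of intergenic H3K4me3 regions (percent of each class) by distance to the nearest protein-coding gene end in bp on a log axis, for regions without YY1 and with YY1. Both outlines peak in the bin above 10 kb, with medians of 15175 and 14842 bp.

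At the limit of the rule, the members nearest to a gene end lay 1002 bp from Tuba1b, 1014 bp from Nab1 and 1023 bp from Zfp36. The regions just outside lay 998 bp from Dennd6a, 993 bp from Tmpo and 988 bp from Car14. At the other extreme a member 1639894 bp past the end of Grik2, which encodes a kainate receptor subunit, at chr10:47453520-47453786 had H3K4me3 peaks of 265, 255 and 266 bp. The next farthest lay 778207 bp from Otol1 and 555797 bp from Zfp608. A further pair lay in the T cell receptor alpha locus, over the V segments Trav13d-4 (718, 714 and 484 bp) and Trav6-7-dv9 (502, 486 and 505 bp). Their distances of 531257 and 524587 bp follow from V segments not being counted as protein-coding genes.

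Members were found on every chromosome searched. Chromosome 11 held the most, 135, and chromosome Y 1. As a share of all H3K4me3 regions of an autosome they ranged from 6.19% on chromosome 5 to 15.0% on chromosome 12, where 92 of 613 regions were members.

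Genes of other types lay at many members. An end of such a gene was within 1000 bp of 368 members (23.2%), against 355 (29.1%) of intergenic regions with YY1. Counting spans as well, 563 members (35.5%) touched or neighboured such a gene and 1021 did not. lncRNA ends accounted for 273 members (17.2%), tRNA genes for 41 (2.59%), pseudogenes for 35, miRNA genes for 11, snRNA genes for 8, snoRNA genes for 6 and V segments for 4. A member can count under several types.

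Of the 12 longest members 4 covered an end of a lncRNA gene (6530402F18Rik, Pvt1, Morrbid and Gm51752). The first, at chr2:29251351-29253792 before Ntng2, covered the start of the lncRNA 6530402F18Rik, and its H3K4me3 spanned 2020, 1966 and 2341 bp in the 3 libraries. The next, at chr15:101315928-101318166 between Smim41 and the lncRNA Gm52200, spanned 2005, 1637 and 1987 bp. The third, at chr15:62037670-62039572, spanned 1898, 1728 and 1767 bp and covered an end of Pvt1, the lncRNA beside the proto-oncogene Myc, 47309 bp from Myc. These lengths are over 4 times the typical member in each library. The region over the start of Morrbid, a lncRNA known to act on the neighbouring pro-apoptotic gene Bcl2l11 in myeloid cells, spanned 1566, 1583 and 1529 bp. A region over n-TFgaa5, a tRNA gene for phenylalanine, spanned 1542, 1565 and 1506 bp on chromosome 14. A region over an end of Mx2, an interferon-induced GTPase gene that is annotated as a transcribed pseudogene in this assembly, spanned 1626, 1585 and 1628 bp. In these last 3 the libraries differed by less than 60 bp. The others of the 12 longest lay nearest to Srrm1, Bcl9l, Tbx2 (1205 bp away), Rcsd1, Rbfa and Efcab11, with mean lengths of 1388 to 1688 bp. None of the 12 had an SMC3 peak in any library.

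A RefSeq promoter window, of those given for protein-coding and lncRNA genes outside chromosome 18, overlapped 118 members, with 132 windows of 121 genes, all lncRNAs. In the Morrbid window printed above, H3K4me3 ran from 236 bp before the start to 1329 bp after it in library 1, with ends within 65 bp of these in the other two. At Snhg20, the host gene of a small nucleolar RNA, it ran from 392 bp before to 651 bp after in library 1 and was narrower in library 3, from 344 before to 539 after. At Lncpint, a lncRNA known as a p53 target, the member over the start spanned 946, 908 and 1008 bp, and the same stretch held 3 more members within 11135 bp. The mark thus sat mainly downstream of the Morrbid start and on both sides of the Snhg20 start. Firre, an X-linked lncRNA with a role in nuclear organisation, had 776, 516 and 656 bp over its start. At Ftx, a lncRNA of the X-inactivation centre, the member was 345, 344 and 333 bp long, and a separate H3K4me3 region about 1.1 kb downstream carried YY1 peaks in libraries 1 and 2. Dubr, a lncRNA studied in muscle differentiation, had 560, 450 and 470 bp over its start.

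**Figure D3:**
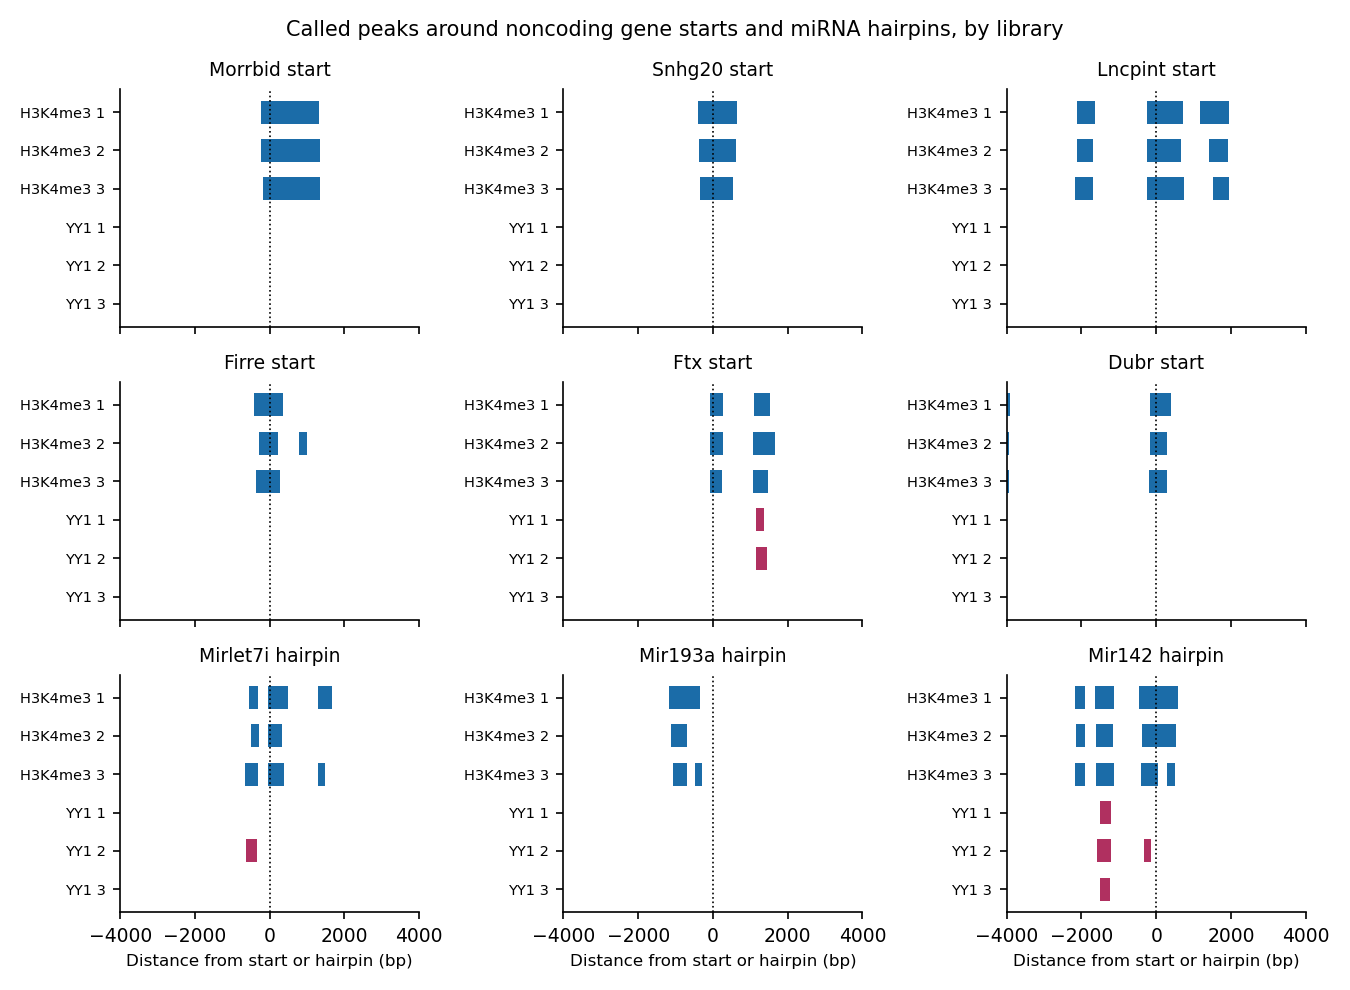
Called peaks (bars) of 3 H3K4me3 and 3 control YY1 libraries around 6 lncRNA starts and 3 miRNA hairpins, in bp from the start or the 5′ end of the hairpin, with the direction of transcription to the right. Members lie over the 6 starts and the Mirlet7i hairpin and upstream of the Mir193a and Mir142 hairpins, and have no YY1 bar at their positions. Other H3K4me3 regions at Ftx, Mirlet7i and Mir142 do, including the region over the Mir142 hairpin.

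The promoter windows in members, all of lncRNAs, were poorer in CpG than those at gene ends and richer than all lncRNA windows together. The median ratio of observed to expected CpG was 0.429 in members, 0.529 in intergenic regions with YY1 and 0.647 in intragenic regions without YY1. At gene ends it was 0.776 without YY1 and 0.823 with YY1. Over all lncRNA windows it was 0.245, and at lncRNA starts without H3K4me3 0.220. A ratio over 0.6 was found in 30.3% of windows in members, 44.2% in intergenic regions with YY1, 85.3% at gene ends with YY1, 7.0% at lncRNA starts without H3K4me3, 14.0% of all lncRNA windows and 35.8% of all 32817 windows. Among the windows printed, Snhg20 had a ratio of 0.896 and 6530402F18Rik 0.825, while Morrbid had 0.36 and Firre 0.41. The windows of the other H3K4me3 classes were not split into protein-coding and lncRNA genes. Class and gene type therefore cannot be told apart in the contrasts with them. Windows of 1 gene can overlap each other, so these are descriptions with no test.

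Motif matches in these windows were described in the same way. The YY1 core CCATNTT occurred in 11 of 132 windows in members (8.33%), in 14.5% of windows in intergenic regions with YY1, in 8.47% at gene ends without YY1, in 17.7% at gene ends with YY1, in 17.9% of all lncRNA windows and in 16.1% of all windows. CCGGAAG occurred in 6.06% of windows in members, 3.89% of lncRNA windows and 8.86% of all windows, and examples are the Morrbid and Snhg20 windows above. GGGCGG was in 36.4% of windows in members, 16.3% of lncRNA windows and 35.6% of all windows. For CCAAT these shares were 25.8%, 36.0% and 37.4%, for TATAAA 9.85%, 15.5% and 13.6%, and for GCATGCG 3.03%, 2.01% and 3.57%. AGATAAG, with an example at Lncpint, was in 4.55%, 3.78% and 3.05%, and TGTGGTT in 9.85%, 6.29% and 5.27%. Every window in members belongs to a lncRNA, while those of the other H3K4me3 classes were again not split by gene type. Shares of CCGGAAG and GCATGCG in members lay above those of lncRNA windows and below those of all windows. GCATGCG appears on both strands of the Ftx window, in overlapping copies. The shares for members rest on few windows, from 4 for GCATGCG to 48 for GGGCGG.

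Of 1228 miRNA genes, 32 lay within 10 kb of a member, and 5 members overlapped a hairpin. The member over Mirlet7i, at chr10:122985232-122985781, spanned 550, 394 and 442 bp, and a second H3K4me3 region about 300 to 650 bp upstream of the hairpin start carried a YY1 peak in library 2 only. let-7i belongs to the let-7 family, which restrains growth and stem cell genes. The member over Mir203 and Gm51289, at chr12:112130776-112131122, spanned 250, 347 and 256 bp. miR-203 is best known from skin, where it promotes differentiation. The member over Mir760 and a tRNA gene for arginine, n-TRtct2, spanned 1488, 1249 and 1223 bp at chr3:122292776-122294263, and was the longest of the members on a hairpin. Mir6516 lay in the Snhg20 region (1044, 966 and 884 bp) and Mir713 in a region of 725, 678 and 670 bp. All members on hairpins were called in 3 of 3 libraries and had no control SMC3 peak.

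Other miRNA genes lay beside a member without touching it. Mir193a lay 294 bp downstream of a member of 840, 420 and 567 bp, with no YY1 peak within 4 kb of the hairpin. miR-193a is known to target Kit, the receptor on which HPC-7 growth depends. Mir146b, linked to innate immune signalling, had a member 860 bp past its hairpin that was called in libraries 2 (263 bp) and 3 (289 bp) only. Mir1949, Mir7688, Gm51276 and Mir5103 lay 24, 258, 912 and 1549 bp from a member. Mir142, known as a haematopoietic miRNA, lay 1911 bp downstream of a member of 253, 248 and 255 bp. That member was the outermost of 3 H3K4me3 regions there. The middle region carried YY1 peaks in 3 of 3 libraries, and the region over the hairpin in library 2 only. Mir22 was 2823 bp, Mir181c 4036 bp, Mir181d 4210 bp, Mir101a 8485 bp and Mir7k 8923 bp downstream of a member. The Mir7k member, nearest to the homeobox gene Cdx2, spanned 985, 925 and 851 bp, and the member before Mir181c and Mir181d spanned 593, 487 and 484 bp.

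Transfer RNA genes were the largest group of small RNA genes at members. Of 408 tRNA genes 182 had an H3K4me3 region within 1000 bp, 63 a member and 81 an intergenic region with YY1, with 20 having both. The 41 members at tRNA genes were 2.59% of members, and 47 regions (3.86%) of the intergenic class with YY1 lay at tRNA genes, against 5 intragenic and 8 gene-end regions without YY1. Of the 41, 29 covered an end of a tRNA gene, 35 were called in 3 of 3 libraries and 1 had an SMC3 peak in any library. Their median H3K4me3 lengths were 646, 543.5 and 487 bp, above the medians of all members in each library. The region at n-TMcat8, a methionine tRNA gene on chromosome 13, spanned 1153, 1223 and 1066 bp. The region at n-TTtgt2, a threonine tRNA gene on chromosome 11 near Trim7, spanned 1163, 994 and 1179 bp. Chromosome 13, which holds the main mouse histone gene cluster, had 19 of the 41, beside 29 of its 105 tRNA genes.

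Other small RNA genes, chosen after their values were seen, were covered too. Terc, the RNA template of telomerase, lay within a member of 652, 636 and 665 bp at chr3:96414212-96414889, 18899 bp from the nearest protein-coding gene end. Rny3 lay within a member of 771, 379 and 620 bp, and Rny1 213 bp from one of 802, 666 and 666 bp. Both encode Y RNAs, which are bound by the Ro protein. Rnu5g, a U5 spliceosomal RNA gene, touched a member of 645, 279 and 473 bp whose nearest YY1 peak was 98 bp away. Snora73a and Snora73b shared a member of 519, 498 and 519 bp.

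The nearest protein-coding genes of the members numbered 1290, which is 5.89% of the 21883 genes, and 1072 of them had 1 member each. An H3K4me3 region lay at an end of 837 of the 1290 (64.9%), against 46.2% of all genes. A YY1 region called in 2 or more libraries lay at an end of 37.8%, against 28.3% of all genes. Genes in wide intergenic space have more room for a member, and the part of gene spacing in these shares was not tested. Nearest is a statement of position and does not show which gene a region acts on.

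Of 41 listed haematopoietic stem and progenitor regulators, 19 (46.3%) were the nearest gene of a member, with 31 members. Sox4, a transcription factor of progenitor and leukaemic cells, had 6, the most of any gene. The nearest of them, 4208 bp before the start, spanned 1218, 1255 and 1227 bp. The farthest, 190461 bp past the end, spanned 1048, 812 and 586 bp. A member over the start of the lncRNA 2610307P16Rik, 63344 bp past the end of Sox4, spanned 435, 403 and 388 bp. All 6 were called in 3 of 3 libraries. Ikzf2 (Helios) and Zfp36l2, an mRNA-decay factor needed by stem cells, had 3 members each, and Fli1, Irf8 and Runx3 had 2 each. The Runx3 pair, about 50 to 53 kb before the start, spanned 295, 283 and 406 bp and 365, 318 and 300 bp. At Meis1, a cofactor of HOX proteins, a member 2221 bp past the end lay beside the start of the lncRNA 8430419K02Rik and spanned 463, 435 and 307 bp. A member before Myb, a factor needed for definitive haematopoiesis, lay 25764 bp from the start with 260, 352 and 387 bp. Cebpe, a granulocyte factor, had a member 2018 bp away with 863, 906 and 837 bp. Single members lay nearest to Bcl11a, Cebpb, Ets1, Etv6, Gfi1, Hlf, Ikzf1, Myc, Satb1 and Zfpm1.

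Signalling genes were also neighbours. Of 32 listed cytokine receptor and signalling genes 9 (28.1%) were nearest to 13 members. Ifngr1, the interferon gamma receptor, had 3. Cxcr4, the receptor that holds progenitors in the marrow, had a pair, of which the one 239824 bp before the start spanned 1348, 1190 and 983 bp. A member 17333 bp from Lyn, a SRC-family kinase, spanned 978, 213 and 987 bp, so the length called in library 2 was far below the others. A member 161722 bp past the end of Ptprc (CD45) spanned 1068, 932 and 1012 bp. Of 28 immediate early and AP-1 genes, which respond to growth signals, 13 (46.4%) were nearest to 17 members. They included Dusp6, a phosphatase of ERK, with 3 members, and Fos and Ier5 with 2 each. The member 2556 bp before Fosl2 spanned 570, 552 and 569 bp. Egr1 had a member with 1330, 615 and 623 bp, where library 1 called more than the other two. Of 17 cyclin, quiescence and survival genes 6 (35.3%) were nearest to 8 members, with 3 at Bcl2l11. The member past the end of the cell cycle inhibitor Cdkn1b, 1304 bp away and beside the lncRNA Lockd, spanned 938, 933 and 800 bp.

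The lists of mature lineages and other cells held smaller shares of nearest genes than the lists above. Of 24 myeloid, mast cell and megakaryocyte genes 3 (12.5%) were nearest to 4 members: Itgam with 2, Cpa3, and Gata3 at 174880 bp. Of 10 pluripotency genes 1 (Utf1, 10%) was a nearest gene. Of 16 listed lymphocyte genes, which did not include Gata3, none was. The Utf1 member spanned 1388, 1382 and 1085 bp and lay at the lncRNA Gm16201. With 5.89% of all genes as a nearest gene, counts from 0 to 3 in lists this short are no result about them. The lists were chosen with earlier results of these data known and no list was tested.

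**Figure D4:**
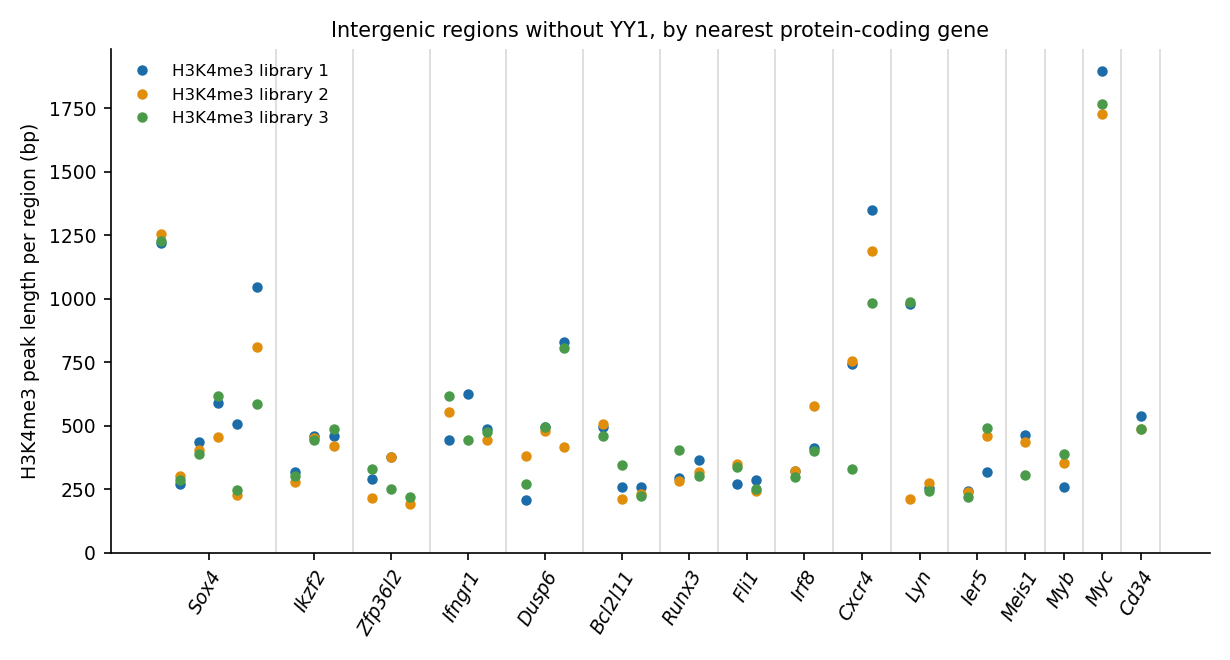
Summed H3K4me3 peak length in bp of each intergenic region without YY1 whose nearest protein-coding gene is one of 16 listed genes, with 1 column of points per region and 1 colour per library. Sox4 has 6 regions, and the region nearest to Myc, over an end of Pvt1, is the longest shown at 1728 to 1898 bp.

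Members also came in local groups. When members within 50 kb of each other were chained, 1048 stood alone and 536 fell into 229 chains. The largest chain, 8 members in 88971 bp at chr13:21940373-22029343, lay nearest to the histone gene H2ac12 and to Pom121l2, Prss16 and Zfp184. The nearest genes of other types were all tRNA genes, including n-TMcat8, n-TQctg1 and n-TVcac8. A chain of 6 at chr2:170155076-170252904 lay between Zfp217, a zinc finger oncogene, and Bcas1, and its longest region, 53912 bp before Zfp217, spanned 525, 634 and 1113 bp. Chains of 5 lay at Trim27 with leucine and lysine tRNA genes, at Rny1 and Rny3 near Pdia4, before Dlx2, and between Slc38a1 and Slc38a2, which encode glutamine transporters. Besides Sox4, the genes with most members were Dlx2, Ly86 and Zfp217 with 5 each. The Dlx2 members were short, from 200 to 594 bp in the libraries that called them, and those before Zfp217 reached 1113 bp.

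SMC3, which the rule did not use, was rarely called at members. A control SMC3 peak lay in 13, 26 and 4 members in libraries 1 to 3, a mean of 14.3 ± 11.1 (SD, n = 3), and a shYY1 SMC3 peak in 7, 13 and 4, a mean of 8 ± 4.58. Control SMC3 was called in 2 or 3 libraries at 6 members (0.379%), against 20.3% of all 16653 H3K4me3 regions, and shYY1 SMC3 at 4 (0.253%), against 15.3%. With any library of an arm the counts were 36 members in control cells and 18 in shYY1 cells, against 30.4% and 23.4% of all regions. In all, 42 members (2.65%) had SMC3 in at least 1 of 6 libraries, compared with 574 (47.1%) of the 1219 intergenic regions with YY1.

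The members with SMC3 in several libraries lay near genes of different kinds. SMC3 was called in all 6 libraries only at chr11:11788623-11788952, 11336 bp past the end of Fignl1, where H3K4me3 spanned 330, 294 and 272 bp. A member 6216 bp from H2-T24, an MHC class I gene, carried SMC3 peaks of 2 control and of 3 shYY1 libraries, with H3K4me3 of 209, 172 and 188 bp. Members nearest to Zxdb and Mrps31 had SMC3 in 2 control libraries and 1 shYY1 library, and those nearest to Agpat5 and Tex35 in 2 control libraries only. Conversely, 1 control and 2 shYY1 libraries had SMC3 at a member 58601 bp before Cd34, the progenitor surface marker (H3K4me3 of 540, 486 and 488 bp), and at one past the end of the deubiquitinase gene Cyld. Of the members over or beside the lncRNA starts and miRNA hairpins described above, those of 8430419K02Rik and Mir713 had SMC3, each in 1 library. The member at a tRNA gene with SMC3, over n-TLcag4, had it in 1 control and 1 shYY1 library.

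Among H3K4me3 regions without YY1, members carried SMC3 slightly more often than the other classes. The mean share over the 6 SMC3 libraries was 0.705% for members, 0.276% for intragenic regions without YY1 and 0.364% for gene-end regions without YY1. Members were higher in 6 of 6 libraries in both comparisons, by 0.43 ± 0.316 and 0.34 ± 0.258 percentage points (SD, n = 6). These shares rest on few regions. In control libraries 1 to 3, SMC3 lay at 11, 15 and 2 intragenic and at 20, 30 and 2 gene-end regions. In shYY1 libraries 1 to 3 it lay at 1, 6 and 3 intragenic and at 3, 7 and 7 gene-end regions. Control SMC3 in 2 or more libraries was found at 6 regions in each of these classes, members included. The exact two-sided sign-flip permutation p, adjusted by Benjamini-Hochberg over 3 comparisons, was 0.031 for each, the smallest that 6 libraries allow. The narrowest gap to gene-end regions was 0.03 percentage points. Intergenic regions with YY1 had SMC3 at 25.7%, and members were lower in 6 of 6 libraries, with a difference of -24.99 ± 7.12 percentage points (same exact test, p = 0.031). The calls against intragenic and gene-end regions were lost without the Fignl1 and H2-T24 members and a gene-end region at Dtx4, the regions lacking YY1 that 5 or 6 SMC3 libraries called (an alternative chosen after seeing the data). The differences were then 0.31 and 0.25 percentage points, higher in 5 of 6 libraries, with an adjusted exact p of 0.0938 for each. The difference from intergenic regions with YY1 was then -25.1 points, lower in 6 of 6 libraries, and its exact p before adjustment was still the smallest that 6 libraries allow. Leaving out any library makes 0.0625 the smallest possible p.

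**Figure D5:**
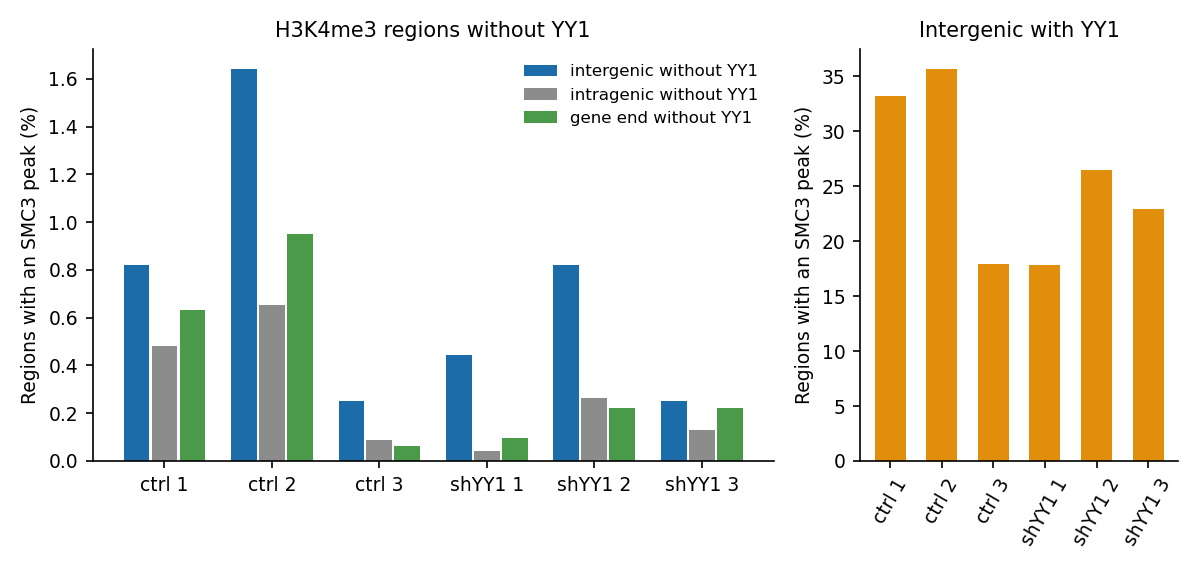
Percent of H3K4me3 regions with an SMC3 peak in each of 3 control (ctrl) and 3 shYY1 libraries, for 3 classes without YY1 (left) and for intergenic regions with YY1 (right, on another scale). Intergenic regions without YY1 are the highest of the left classes in each library, at 0.253% to 1.64%, and intergenic regions with YY1 lie far above them.

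The number of members with SMC3 overlapped between control and shYY1 cells, and the mean difference was below the SD of the control libraries. The difference, shYY1 minus control, was -6.33 members (exact two-sided permutation p = 0.7, where 3 libraries against 3 cannot go below 0.1). Control library 2 alone held 26 of the members and control library 3 only 4, as few as shYY1 library 3. Without control library 2 the difference was -0.5 members, and without control library 3 it was -11.5. When only the 2061 longest SMC3 peaks of each list were kept, the direction turned to 1.33 more members in shYY1 cells (exact permutation p = 0.4). The descriptions name Abcam for SMC3 library 1 of each arm only, and without those libraries the difference was -6.5 members. By region, 24 members had SMC3 in control libraries alone, 6 in shYY1 libraries alone and 12 in both arms, where all H3K4me3 regions had 9.01%, 2.03% and 21.4%. As shares of the regions with any SMC3 these were 57.1%, 14.3% and 28.6% for members, and 27.8%, 6.26% and 66.0% for all H3K4me3 regions. The other classes without YY1 also had SMC3 mostly in control libraries alone, so this was not particular to members. The counts in the same order were 17, 4 and 5 of 26 intragenic regions with any SMC3, and 37, 7 and 8 of 52 at gene ends.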

How the data were processed

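Deposited files were called peak lists, 1 per library, whose only measurements are positions (start, end and summit offset in bp). Per the submitters' processing notes the authors worked on the build mm10 with MACS2 2.2.9.1, and with Bowtie2 2.5.1, cutadapt 4.5 and Picard 3.1.1. Settings, thresholds and any use of IgG were not given in the sources used here. The deposited starts were read as counted from 0 and positions are printed from 1. Regions were merged and classified in Python 3.11.15 (numpy 2.4.6, pandas 2.3.3) with RefSeq GRCm38.p6 gene spans, and the code was tested on simulated intervals. H3K4me3 length is the summed peak length in a region per library. Library counts were compared by exact permutation (20 assignments) and shares by exact sign flips (64). No identical libraries were found among replicates.

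Members, gene lists and noncoding genes were chosen with earlier results of these data known. Named regions were the 12 longest, those with SMC3 in 2 or more libraries of an arm, up to 12 at other gene types and the 12 nearest miRNA genes, the nearest to listed genes, those at the distance limits and the largest groups. Not every region that the rule selected is described, and 1 of the gene lists is not reported here.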

Additional observations from a re-analysis of the deposited data

How the results depend on the processing

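The number of members was 1584, and 1021 when regions at or inside genes of any type were also removed. Leaving out each H3K4me3 or YY1 library gave 1305 to 1940. The number was 2010 when only YY1 regions called in 2 or more libraries excluded a region. The mean of the library medians of H3K4me3 length, 417 bp, was 455 bp without library 2 (range over left-out libraries 410.5 to 455). With library 2 left out both other libraries had to call a region, which gave 1339 members. The arm difference of -6.33 members ranged from -11.5 to -0.5 over left-out libraries, and was 1.33, reversed, with lists of equal length. The differences in SMC3 share from intragenic and gene-end regions without YY1 and from intergenic regions with YY1 were 0.50, 0.36 and -28.1 points with control libraries only (exact permutation p = 0.25, the smallest possible). They were 0.32 to 0.49, 0.27 to 0.40 and -26.5 to -23.2 over left-out libraries (exact p = 0.0625, the smallest possible). Without the regions lacking YY1 that 5 or 6 SMC3 libraries called, they were 0.31, 0.25 and -25.1 (adjusted exact p = 0.0938, for the last through the adjustment alone, and for the others the cause was not tested). In a replicate block, averaging libraries that share a number, they stayed 0.43, 0.34 and -24.99 (exact p = 0.25, the smallest possible) and the arm difference -6.33 (exact p = 0.5). For SMC3 calls taken as deviations from the mean of each arm, same-numbered control and shYY1 libraries had correlations of -0.0058, 0.033 and -0.028. Different-numbered libraries had -0.039 to 0.050. With 3 libraries in each arm these values cannot show whether the numbers pair the libraries. The differences in share kept their direction and side of the threshold with SMC3 within 250 bp of the midpoint, with H3K4me3 in 3 of 3 libraries, with a limit of 2500 bp and with all gene types. Depth limits every absence: the lists hold no scores, so an uncalled YY1 or SMC3 peak may lie under the callers' threshold.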
